A study of Aspergillus fumigatus with 12 samples.

Results

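The comparison of sinapic acid alone with basic medium rests on 6 of the 12 RNA libraries of the series. The SA libraries, 3 in number, came from mycelium on basic medium with sinapic acid, and the 3 CK libraries from mycelium on basic medium alone. Neither group received the azo dye Ponceau 2R. The genes described were chosen by level, as those with at least 1 FPKM (fragments scaled to gene length and to the depth of the library) in 3 or more of these 6 libraries. This took in 9086 of 10276 listed genes, or 88.4%. The remaining libraries, 3 with dye and sinapic acid (P2R+SA) and 3 with dye alone (P2R), entered the estimate of spread. Through that spread they had a part in which genes passed the test. In 1 comparison below they gave log2 differences that used no SA or CK value. All are labelled mycelium, and the series text gives strain X-13. No concentration of sinapic acid is given in the labels used here, nor whether the 3 libraries of a group were separate cultures. The spread behind each p-value is therefore that of these libraries and may be partly technical.

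A few records limit what the comparison can separate. The series design states a single time of 48 h for every group, whereas the header line of each per-library file carries the number 48 for SA and 36 for CK. If that number is a time in hours, sinapic acid and a later sampling time cannot be told apart in any result of SA against CK. The title of the series gives the fungus as Trametes hirsuta and the organism field as Aspergillus fumigatus. Of the 10276 IDs, 0 matched the A. fumigatus table at hand, so genes are given by ID, with no name, function or position, and no more than 4 IDs are named. Whether near-identical copies or overlapping genes shared reads could not be checked.

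Sinapic acid is a hydroxycinnamic acid, a plant phenolic built like the units of lignin. White-rot fungi such as Trametes species degrade lignin with secreted laccases and peroxidases, enzymes that also oxidise free phenols and dyes. Phenolic acids are known in such fungi both as substrates of these enzymes and as compounds that can raise the transcription of laccase genes, and cells also meet them with oxidases, conjugating enzymes and exporters. Which of the IDs encode such proteins is not known here.

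Depth was high and alike in both groups. Whole fragments came out of the FPKM values of 10272 genes, and the totals behind the values lay between 35919382 and 37475401 fragments in SA libraries and between 36573497 and 39408714 in CK libraries. Of the 9086 genes, 8632 reached 1 FPKM in all 6 libraries, 314 in 4 or 5 and 140 in exactly 3, while 118 genes stopped at exactly 2 libraries and were not included. At the limit itself, the third-highest of the 6 values was 1.0010 FPKM in the lowest gene inside and 0.9983 FPKM in the highest gene outside. Genes that reached 1 FPKM in all 3 SA libraries and in no CK library numbered 24, and 35 did so in all CK libraries and in no SA library. Such genes passed the level rule only through the group in which they were high, so their number supports nothing.

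With sinapic acid, 1530 of the 9086 genes changed, 623 higher and 907 lower. That is 16.8% of these genes, against 16.6% of all 9240 genes tested in the series, of which the 9086 are nearly the whole. Genes higher were 6.86% and genes lower 9.98%. The test was limma on log2(FPKM + 1) over all 12 libraries, two-sided, at a Benjamini-Hochberg adjusted p under 0.05. Changes ran from -4.73 to 3.22 log2 units, with a median size of 0.79 among the changed genes, while the median over all 9086 genes was -0.04. At a size of 1 log2 unit or more there were 197 rises and 316 falls (2.17% and 3.48%), at 2 or more 28 and 75, and at 3 or more 3 and 24. The pseudocount of 1 compresses changes of low genes, so these sizes do not rank rises against falls: with a pseudocount of 0.1, A06692 rose by 5.41 log2 units while A10771 stood at -4.83. The SA and CK libraries did not overlap in 1525 of the 1530 changed genes. Groups without overlap were found in 39.0% of all 9086 genes, with SA above CK in 14.6% and below it in 24.4%. The number of changed genes was 811, 851 and 889 without CK replicate 1, 2 and 3 in turn, so the count was lower without any 1 of the CK libraries. Of those calls, 98.9%, 99.4% and 99.2% were among the 1530. Why the count fell was not tested. Without SA replicate 2 the split was nearly even, at 1012 higher and 1067 lower. In RNA from whole mycelium, fewer cells that express a gene and less of its RNA per cell cannot be told apart.

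**Figure D1:**
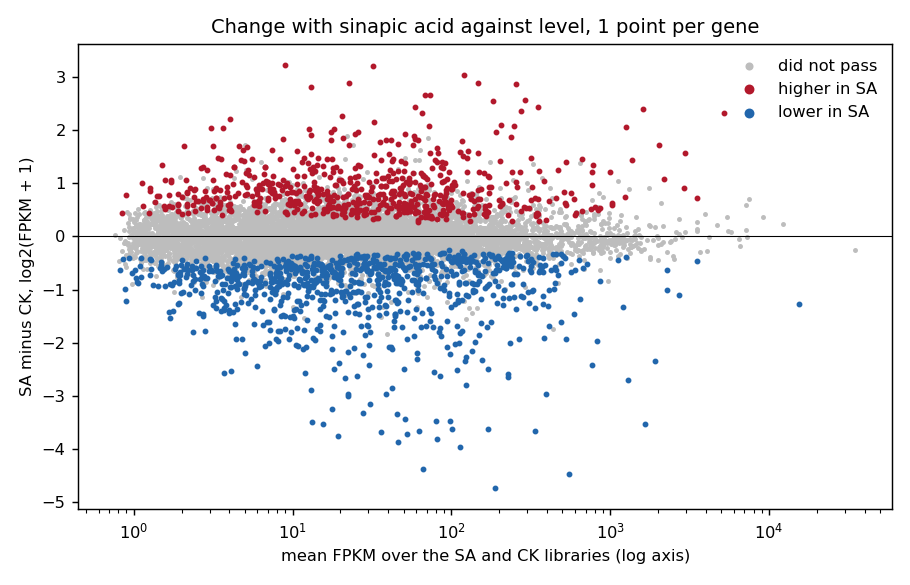
Each point is 1 of the 9086 genes, with the mean FPKM of the SA and CK libraries on a logarithmic horizontal axis and the difference SA minus CK on the log2(FPKM + 1) scale on the vertical axis. The 623 genes higher and 907 lower spread over the whole range of levels, with values between -4.73 and 3.22 on this scale, which compresses changes of low genes.

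The genes with the largest rises and falls were taken by rule from changed genes whose libraries did not overlap and whose mean reached 5 FPKM in SA or in CK. The largest fall was that of A10771, a short gene with a coding length of 234 bp. It had 12.6, 9.93 and 16.1 FPKM in SA libraries, against 443, 328 and 324 FPKM in CK libraries. All 3 SA libraries lay close together, far below every CK library. Its mean was 12.9 ± 3.08 FPKM in SA and 365 ± 67.9 FPKM in CK (SD, n = 3 each), 28.4-fold lower in SA. The fitted log2 difference was -4.73 (SE 0.27, limma adjusted p = 1.90e-06).

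The second-largest fall was that of A04815, with a coding length of 681 bp. This gene was abundant in basic medium, with 54.0, 65.5 and 26.8 FPKM in SA libraries, against 1272, 931 and 940 FPKM in CK libraries. SA replicate 3 was the lowest, and the groups did not overlap. The means were 48.8 ± 19.9 FPKM in SA and 1048 ± 195 FPKM in CK (SD, n = 3 each), 21.5-fold lower in SA, and the log2 fold change came to -4.47 (SE 0.33, limma adjusted p = 7.85e-06).

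The largest rise, in A06692 with a coding length of 390 bp, started from almost no transcript. It had 2.43, 43.4 and 7.05 FPKM in SA libraries, against 0.342, 0 and 0.130 FPKM in CK libraries. The fragments behind these values were 34, 627 and 103 in SA and 5, 0 and 2 in CK. The gene lay above CK in all 3 SA libraries, but SA replicate 2 stood 17.9-fold above SA replicate 1. The mean was 17.6 ± 22.5 FPKM in SA, with an SD above the mean, and 0.157 ± 0.173 FPKM in CK (SD, n = 3 each). The log2 fold change came to 3.22 (SE 0.65, limma adjusted p = 0.00633). It was 2.19 without SA replicate 2 (limma adjusted p = 8.39e-04) and 4.04 without SA replicate 1 (limma adjusted p = 4.55e-04). With a CK level this near 0 the size also depended on the scale, at 5.41 with a pseudocount of 0.1 (limma adjusted p = 0.00168) and 6.15 with limma-voom on the recovered fragments (limma adjusted p = 0.0172).

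A09190, with a coding length of 1101 bp, showed the next rise. It had 105, 48.9 and 25.1 FPKM in SA libraries, against 4.70, 5.04 and 4.15 FPKM in CK libraries. Here SA replicate 1 was the highest and SA replicate 3 the lowest, a 4.19-fold span within SA, while the CK libraries lay within 1 FPKM of each other. The means were 59.7 ± 41.1 FPKM in SA and 4.63 ± 0.451 FPKM in CK (SD, n = 3 each), 12.9-fold higher in SA, and the log2 fold change came to 3.20 (SE 0.38, limma adjusted p = 2.36e-04). So the library with the highest value was SA replicate 2 in A06692 and SA replicate 1 in A09190.

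**Figure D2:**
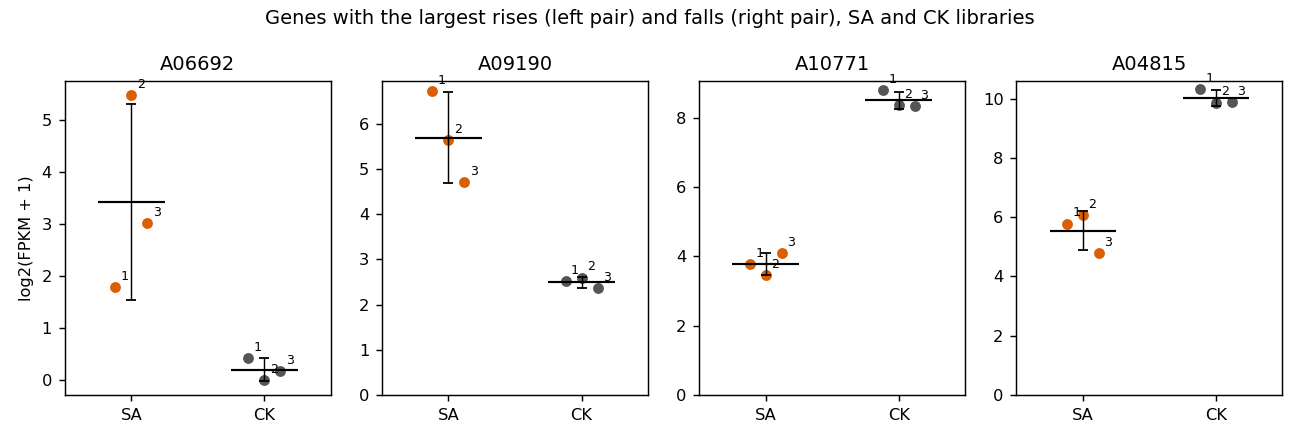
The vertical axis gives log2(FPKM + 1) of the 4 genes named by the rule in each SA and CK library, numbered by replicate, with horizontal lines at the means and bars of 1 SD (n = 3 each). In A06692 and A09190 the SA libraries are spread out above tightly grouped CK libraries, and in A10771 and A04815 both groups lie far apart, with SA replicate 3 of A04815 below the other SA libraries.

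The changed genes were also summed as transcript mass. The 623 genes that rose held 11.0%, 10.7% and 9.94% of the summed FPKM in SA libraries, against 4.79%, 4.89% and 5.25% in CK libraries. The 907 genes that fell held 6.53%, 7.30% and 7.30% in SA libraries, against 14.8%, 13.8% and 13.9% in CK libraries. These sums follow from the choice of genes and are given as a description. The 10 most abundant genes of the 6 libraries held 11.2% to 12.4% of the summed FPKM in SA libraries and 12.2% to 12.8% in CK libraries. Of these 10, 1 passed the test, as lower, with 10400, 8056 and 8838 FPKM in SA libraries, against 24102, 21987 and 19347 FPKM in CK libraries (log2 fold change -1.26, SE 0.15, limma adjusted p = 2.67e-04).

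Changes were found at every level of expression. Of genes with a mean under 5 FPKM, 5.58% rose and 9.19% fell (1686 genes), and of genes at 100 FPKM or more, 7.54% rose and 12.8% fell (1605 genes). Between these, 6.22% rose and 10.1% fell at 5 to 20 FPKM (2542 genes), and 7.69% rose and 8.91% fell at 20 to 100 FPKM (3253 genes). The pseudocount of 1 compresses changes of the lowest genes, so the shares under 5 FPKM are not on an equal footing with the others.

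The share of rises was lowest among genes with long coding sequences. Coding lengths came out of the values for all but 4 of the genes. The genes were put into 4 length classes of nearly equal number. In the longest class, 2046 to 15048 bp, 4.54% of 2271 genes rose, against 7.73% of 2278 genes in the shortest, 201 to 894 bp. The shares were 8.35% in the class from 897 to 1353 bp and 6.83% in that from 1356 to 2043 bp. Falls showed no such gradient, at 9.79%, 9.24%, 10.3% and 10.7% from the shortest to the longest class. The median coding length was 1197 bp among genes that rose and 1407 bp among genes that fell, beside 1354 bp over all. After median-of-ratios scaling the longest class still had the lowest share of rises, 5.46%, but rises then outnumbered falls in both shorter classes, with 228 rises and 221 falls in the class from 201 to 894 bp and 233 and 203 in that from 897 to 1353 bp. The difference between classes was not tested. Level moved with length too, with a median of 18.7 FPKM in the longest class and 40.0 FPKM in the shortest, and its part in the gradient was not tested.

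**Figure D3:**
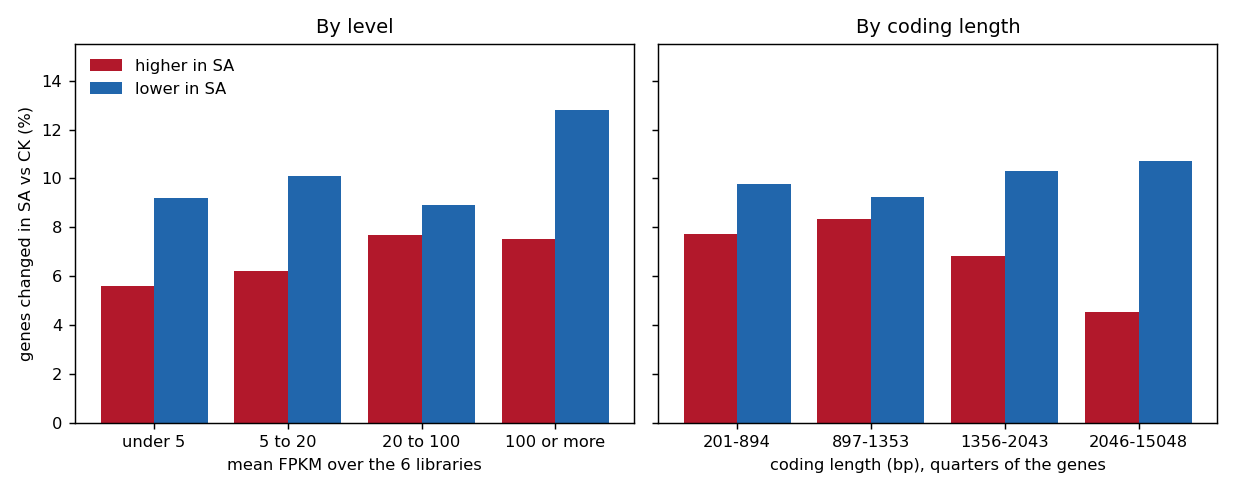
Bars give the percentage of genes higher (red) and lower (blue) in SA than in CK, on the left by mean FPKM over the 6 libraries and on the right by class of coding length in bp. With the values as deposited, falls outnumber rises in every pair of bars, and the share of rises is lowest, 4.54%, in the class with the longest coding sequences.

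The 3 SA libraries spread far more than the 3 CK libraries. Over the 9086 genes the median SD on the log2 scale was 0.220 among SA libraries and 0.0993 among CK libraries, and the SD was larger in SA in 82.4% of the genes. Spearman correlations were 0.9643 to 0.9764 between SA libraries and 0.9944 to 0.9955 between CK libraries. The SA libraries spanned at least 1 log2 unit in 958 genes (10.5%) and the CK libraries in 47 (0.517%). A span of at least 2 log2 units was found in 138 genes in SA and in 1 gene in CK. The larger spread in SA held at every level, from 0.239 against 0.146 under 5 FPKM to 0.200 against 0.0813 at 100 FPKM or more. With dye in both groups, the median SD was 0.212 in P2R+SA libraries and 0.134 in P2R libraries. The limma array weight is lower for a library that departs more from its group. It was 0.174, 3.759 and 1.001 in P2R+SA replicates 1, 2 and 3, and 0.351, 0.285 and 0.738 in SA replicates 1, 2 and 3. How far the P2R+SA spread rested on its replicate 1 was not tested.

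All 3 SA libraries departed from CK, and SA replicate 1 departed the furthest. The median absolute log2 difference from the CK mean was 0.321 in SA replicate 1, 0.246 in SA replicate 2 and 0.287 in SA replicate 3. For a CK library against the mean of the other 2 it was 0.0897 to 0.103. A difference of at least 1 log2 unit from the CK mean was seen in 1024, 606 and 650 genes in SA replicates 1, 2 and 3, and in 6 to 13 genes in a CK library. Spearman correlations with the CK libraries were 0.9381 to 0.9445 for SA replicate 1, 0.9620 to 0.9653 for SA replicate 2 and 0.9593 to 0.9610 for SA replicate 3. The first principal component of the 6 libraries, with 62.5% of the variance, separated SA from CK and placed SA replicate 1 at 39.2, SA replicate 3 at 23.0 and SA replicate 2 at 16.0, against -27.3 to -24.4 in CK. The second, with 18.2%, set SA replicate 1 at 23.1 against -23.8 and -10.4 in SA replicates 2 and 3, and the third, with 13.6%, set SA replicate 2 at 17.5 against -24.3 in SA replicate 3. Thus SA replicates 2 and 3 also differed from each other, and not only from SA replicate 1. The number of directions is no result, because 3 libraries can differ among themselves along 2 at most.

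Among the changed genes the 3 libraries took the same order. Genes that rose had median differences from the CK mean of 0.87, 0.68 and 0.75 log2 units in SA replicates 1, 2 and 3, and genes that fell had medians of -0.88, -0.70 and -0.75. SA replicate 2 was the library nearest CK in 47.0% of the rises and 44.2% of the falls, and SA replicate 1 in 19.3% and 19.1%, where 1 in 3 would be an even share. The SD between SA libraries amounted to a median of 34.6% of the fold change among rises and 27.5% among falls. The test favours genes with a small spread beside their fold change, so these percentages are partly built in.

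**Figure D4:**
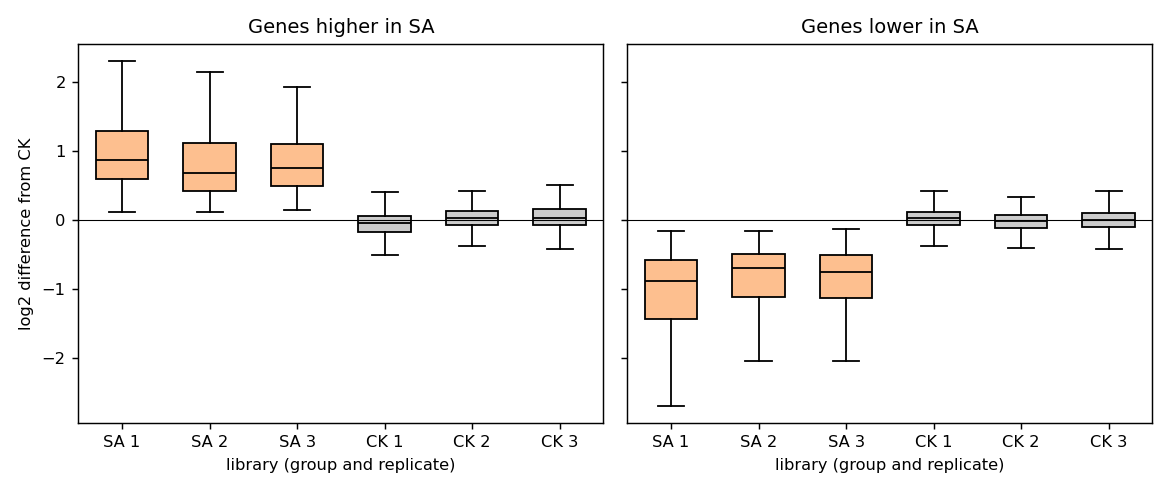
Boxes show the log2 difference of each SA library from the CK mean, and of each CK library from the mean of the other CK libraries, for the genes higher in SA (left) and lower in SA (right), with lines at the medians, boxes between the 25th and 75th percentiles, whiskers to 1.5 box lengths and points beyond them left out. SA replicate 1 has the largest medians, 0.87 and -0.88, and the CK libraries lie around 0.

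Large changes were shared by the SA libraries to different degrees. Of the 197 genes that rose by at least 1 log2 unit, 87 (44.2%) did so in all 3 SA libraries, another 87 in 2 of them and 23 in 1. Of the 316 genes that fell by as much, 183 (57.9%) did so in all 3, 99 in 2 and 34 in 1. The calls also depended on which SA library was present. Without SA replicate 1, 1168 genes changed, of which 1030 were among the 1530. Without SA replicate 2, 2079 genes changed, of which 1370 were among the 1530. The count also rose, to 2199, without P2R+SA replicate 1, which enters SA against CK only through the spread. Why these counts rose was not tested. Without SA replicate 3, 1363 genes changed and 1147 were shared. In all, 706 genes (280 higher, 426 lower) kept their call whichever 1 of the 6 SA and CK libraries was left out, 46.1% of the 1530. Among the 513 changes of at least 1 log2 unit, 413 did (80.5%), and so did all 4 named genes.

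Where the SA libraries lay furthest apart, it was most often SA replicate 1 that stood apart. A library counted as apart when the larger gap between neighbouring SA values set it off, and the others did not have to lie close together. The genes and the library apart were picked from the same SA values. The distances from CK and the counts outside the CK range below are thus partly built in, and are a description only. In 57 of the 138 genes with a span of at least 2 log2 units, SA replicate 1 was low by this rule. In these 57 genes the median difference from CK was -2.64 log2 units in SA replicate 1 and -0.09 in the mean of the others. SA replicate 1 lay below all CK libraries in 53. In 16 of the 57 the others lay outside the CK range on their side. In 20 further genes SA replicate 1 was high, at a median of 2.74 against 0.07 in the others, and above all CK libraries in all 20. SA replicate 2 was high in 22 genes, at a median of 1.66 against -0.45 in the others, and above all CK libraries in 18. In the 13 genes where SA replicate 2 was low, the median was -0.73 in it and 1.64 in the others, and the others lay above all CK libraries in 13 of 13. SA replicate 3 was low in 9 genes and high in 17. Of the 138 genes, 28 passed the test (11 higher, 17 lower) and 110 did not, where 16.8% of all 9086 genes passed.

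Genes that varied among SA libraries could be set beside the P2R+SA libraries, which share no library with them. Across the 9086 genes, the deviation of SA replicate 2 from its group mean correlated at a Pearson r of 0.45 (Spearman rho 0.43) with that of P2R+SA replicate 1, and at -0.44 (rho -0.44) with that of P2R+SA replicate 3. The other 7 of the 9 pairs lay between -0.28 and 0.26 by Pearson r and between -0.34 and 0.30 by Spearman rho. Such values were not particular to SA libraries. Over all 9240 genes tested, P2R replicate 2 correlated at a Pearson r of -0.579 with P2R+SA replicate 1 and of 0.542 with P2R+SA replicate 2. Genes are not replicates of each other, and the 3 deviations of a group sum to 0, so these values are a description only. The 609 genes that differed by at least 1 log2 unit between P2R+SA and P2R had a median SD of 0.467 between SA libraries, against 0.212 in the 8477 others, while their SD between CK libraries was 0.165, against 0.0961.

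The large changes with sinapic acid alone were mostly met again where dye was present in both groups. Of the 316 genes that fell by at least 1 log2 unit in SA, 308 (97.5%) were also lower in P2R+SA than in P2R, with a median log2 difference of -1.21, and 227 (71.8%) passed the test as lower, against 11.3% of all 9240 genes tested. Of the 197 that rose by as much, 175 (88.8%) were higher in P2R+SA, with a median of 0.86, and 110 (55.8%) passed as higher, against 8.52% of all genes tested. The median of all genes tested was -0.03. Calls in the opposite direction numbered 1 among the falls and 7 among the rises. P2R+SA carries the header number 48, with a separate 4 that no source explains, and P2R the number 36, so whatever that number marks enters this comparison as it enters SA against CK, and both draw each gene's spread from the same 12 libraries.

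Among falls shared by all 3 SA libraries, the share that passed again was higher than among the others. Of the 183 falls of at least 1 log2 unit in every SA library, 152 (83.1%) passed as lower in P2R+SA, with a median log2 difference of -1.45, against 75 of 133 (56.4%) and a median of -0.90 among falls carried by fewer libraries. Rises differed less on this count, at 58.6% of 87 with a median of 1.10 and 53.6% of 110 with a median of 0.76. These differences between lists were not tested. Asking for 1 log2 unit in every SA library favours larger changes and a smaller spread between SA libraries. That spread also enters the test of P2R+SA against P2R, so a higher share passing is partly built in. Without SA replicate 2, which let in further genes, the median over the large rises was 0.57.

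**Figure D5:**
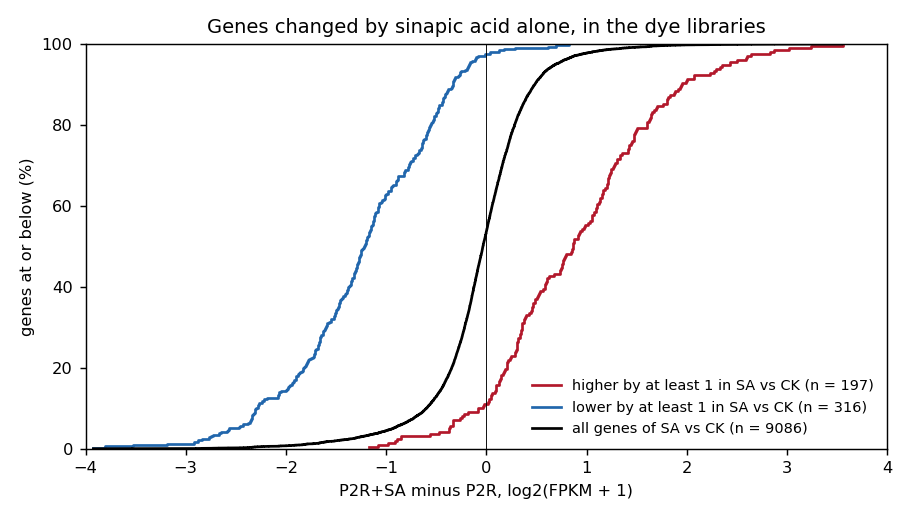
Cumulative curves give the percentage of genes at or below each log2 difference between P2R+SA and P2R, for the 197 genes higher and the 316 genes lower by at least 1 log2 unit in SA than in CK and for all 9086 genes. The curve of the falls crosses its middle at -1.21 and that of the rises at 0.86, on opposite sides of the curve of all genes.

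The named genes did not all behave alike in the dye libraries. A10771 had 114, 61.5 and 55.4 FPKM in P2R+SA libraries, against 490, 308 and 339 FPKM in P2R libraries (log2 difference -2.33, SE 0.27, limma adjusted p = 2.62e-04). A09190 had 67.6, 94.0 and 102 FPKM in P2R+SA libraries, against 16.3, 19.3 and 24.6 FPKM in P2R libraries (log2 difference 2.08, SE 0.38, limma adjusted p = 0.00314). Both moved in the same direction as without dye, and their groups did not overlap. For A10771 the log2 difference was -2.33 with dye and -4.73 without.

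A04815 had 100, 55.7 and 44.9 FPKM in P2R+SA libraries, against 264, 202 and 262 FPKM in P2R libraries (log2 difference -1.92, SE 0.33, limma adjusted p = 0.00206). A06692 had 0.530, 0.347 and 0.265 FPKM in P2R+SA libraries, against 0, 0.0693 and 0.211 FPKM in P2R libraries, under 1 FPKM in every dye library (log2 difference 0.34, SE 0.65, limma adjusted p = 0.753). Its level above 1 FPKM was thus seen in SA libraries alone among the 12.

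Changed genes stood next to one another by ID number more often than their overall share. The next tested ID had also risen for 69 of 627 risen genes (11.0%), where 6.79% of all 9240 tested genes rose, and had also fallen for 134 of 909 fallen genes (14.7%), where 9.84% fell. The next ID had moved the opposite way for 7.66% of rises and 6.82% of falls. Whether ID numbers follow the genome is not given, and neighbouring or overlapping genes can share reads, so no position is drawn from this. The longest run held 7 consecutive IDs, all of them higher in SA and without overlap between groups, and was singled out after its values were seen. Summed over the 7, it had 2265, 2170 and 2023 FPKM in SA libraries, against 1241, 1262 and 1205 FPKM in CK libraries. Its log2 fold changes lay between 0.48 and 1.80, with limma adjusted p of at most 0.00416.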

How the data were processed

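The deposited FPKM values were made by the authors, and their files hold no counts. Tools named in the submitters' processing notes, without roles, are R 3.2.0, fastp, HTSeq and HISAT2. Per the labels' protocols, RNA was extracted with TRIzol before library construction with the VAHTS Universal V10 kit. The strand setting, genome build, annotation and filters applied were not given in the sources used here. The series-wide table was used; the per-library files hold the same values to within 4.9e-06 FPKM.

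In the per-library files, 1 total per library and a length in steps of 3 bp per gene turned the values of 10272 of 10276 genes into whole fragments (99.96%, tolerance 1e-06). These served for depth and coding length, and for limma-voom as an alternative. Between replicates, chi-square per degree of freedom was 217 to 266 in SA and 26.0 to 40.7 in CK, where counting noise alone gives 1, so no library was a copy of another.

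limma 3.58.1 in R 4.3.3, with an intensity trend, was fitted to log2(FPKM + 1) for the 9240 genes that reached 1 FPKM in 3 or more of the 12 libraries. The fit had 4 groups, 8 residual degrees of freedom and no block, and adjustment ran over all 9240. Fold changes are on that scale, which understates changes of low genes. On simulated fragments for SA vs CK with 200 of 9236 genes changed, it recovered 55.2%, 92.5% and 100% of changes of 0.5, 1 and 2 log2 units, with 4 false calls among 169. The simulation gave all genes of a group the same spread, set from a median, whereas the spread of the real genes varied. Its rates therefore need not hold for these data.

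Named genes are the 2 largest rises and 2 largest falls among genes that passed at 0.05, had no overlap between SA and CK libraries and averaged 5 FPKM or more in either group. The genes, rules and lists were chosen with earlier results of these data known. Gene lists by product could not be applied, as IDs carry no names.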

Additional observations from a re-analysis of the deposited data

Results flagged for a closer look

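A pair of the named genes was singled out because the change with sinapic acid differed in size between groups with and without dye. The test was of the difference itself (the interaction term of the limma fit, adjusted over all 9240 genes). For A10771 the log2 change was -2.33 between P2R+SA and P2R and -4.73 between SA and CK, a difference of 2.40 (SE 0.39, limma adjusted p = 0.0133). For A04815 the changes were -1.92 and -4.47, a difference of 2.56 (SE 0.46, limma adjusted p = 0.0241). Without sinapic acid, A04815 was already lower with dye, at 264, 202 and 262 FPKM in P2R against 1272, 931 and 940 FPKM in CK. In A10771 the P2R and CK libraries overlapped. A10771 and A04815 were both chosen as the largest falls in SA vs CK, which enters the difference, and that choice favours a positive value. For A06692 and A09190 the same test did not pass (limma adjusted p = 0.171 and 0.367).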

How the results depend on the processing

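The direction of all 4 named genes, and their calls, held in each of 22 alternatives, with limma adjusted p of at most 0.0453 for A06692, 0.00690 for A09190, 1.18e-04 for A10771 and 5.60e-04 for A04815, each with the SA and CK libraries alone. The log2 fold change of A06692 ran from 2.19 to 6.15, that of A09190 from 2.68 to 3.70, that of A10771 from -4.89 to -4.57 and that of A04815 from -4.73 to -4.10. The number of changed genes, 1530, ran from 811 to 2199 over single libraries left out (851 and 889 without CK replicates 2 and 3), and that of changes of at least 1 log2 unit, 513, stayed within 1.5 times in each alternative. Of the changed genes, 40.7% were higher with the values as deposited, 47.2% with median-of-ratios scaling, 47.6% with quantile normalization and 48.7% without SA replicate 2. With median-of-ratios scaling, SA replicates 1 and 2 were nearest CK in 24.4% and 42.4% of the rises and in 14.7% and 48.7% of the falls. The cause was not tested. The median log2 difference in P2R+SA vs P2R over large rises was 0.57 to 0.94 with a library left out. Without SA replicate 1 and P2R+SA replicate 1 together, an alternative chosen after seeing the data, 1989 genes changed. Same-numbered SA and CK libraries deviated with correlations of -0.113 to 0.094 and were not taken as pairs. The replicate block gave 1325 changed genes and 500 changes of at least 1 log2 unit, and changed no call of a named gene.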
